A study of Rattus norvegicus with 18 samples.

Results

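The cytosolic ribosomal protein genes are described here in the hippocampus of 18 rats. They were taken by symbol: every gene whose symbol is RPL, RPS or RPLP followed by a number, without the S6 kinases and without symbols that hold a hyphen. The rule found 102 of the 20909 genes measured. Of these, 46 carry a main symbol of the large subunit and 30 a main symbol of the small subunit. Another 24 carry the symbol of a paralogue or copy (13 of the large and 11 of the small subunit, such as Rpl17l1 or Rps4y2), and 2 match the rule but are not structural parts of the ribosome (Rpl7l1 and Rps19bp1). The rule itself uses symbols and no measured value, but it was set up with earlier results of these data known, among them that of Rpl17.

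Whole hippocampus of adult male rats was sequenced as polyA RNA, 1 library per rat, with 6 rats in each of 3 groups. The bred High Responder line (bHR) was selected for strong exploration of a new environment and the bred Low Responder line (bLR) for weak exploration, both in generation F37, and their rats were killed at P160 to P167. The bred Intermediate Responder rats (bIR) came from crossing these lines and were killed at P126 to P134, so a difference between bIR and another group is also a difference in age. No treatment is labelled, and a bred line differs from another at many loci at once. Rats are named by line and number (HR_10 is rat 10 of bHR), and whether rats of a line shared a litter is not given in the labels.

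Levels are in FPM, fragments per M reads scaled for library depth and not for gene length, so levels are compared between rats and not between genes. Libraries held 31.1 to 66.6 M reads. All 6 neuronal and all 3 dentate granule cell markers were detected in the tissue. Choroid plexus markers were uneven: the sum of the 6 ran from 78.6 to 4394 FPM in bHR, from 98.1 to 14003 in bIR and from 92.2 to 1760 in bLR. Between bHR and bLR no marker of these or other cell types was called, but some lists leaned one way. In bHR the mean was higher for 0 of 3 dentate granule cell (median log2 difference -0.62), 0 of 6 neuronal (-0.15), 0 of 3 CA pyramidal cell (-0.17) and 0 of 2 blood markers (-0.32). It was higher for 1 of 3 endothelial (-0.24), 1 of 3 meningeal (-0.07) and 1 of 4 microglial markers (-0.11). Higher in bHR were also 4 of 4 astrocyte (0.20), 3 of 3 ependymal (0.22), 5 of 6 choroid plexus (0.09) and 2 of 3 oligodendrocyte markers (0.10). Choroid plexus markers entered some of the alternative settings used below. The part of the other cell types in the differences below was not tested. The plexus gene Ttr exceeded 11 on the log2 scale in HR_38, IR_213, IR_248 and IR_261. In whole tissue, fewer cells of a type and less RNA per cell cannot be told apart.

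A cytosolic ribosome has a large subunit, which forms peptide bonds and holds the tunnel through which the new chain leaves, and a small subunit, which reads the messenger RNA. Their proteins are needed in matched amounts, and surplus copies are degraded. Most ribosomal protein messages begin with a C followed by an unbroken run of pyrimidines, the 5' terminal oligopyrimidine (TOP) motif, through which mTORC1 and Larp1 adjust their translation and stability together. In neurons these messages are abundant and are also found in dendrites and axons.

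Start-site sequences came from RefSeq on the GRCr8 assembly, which is newer than the one the reads were counted on, so no positions are given. Of the 102 genes, 95 had an entry in the gene table by symbol and 76 had a start sequence, 61 of them main symbols. Each line below gives the 10 bases before and the 20 bases from the annotated start, 5' to 3'. Capitals mark a run of a C followed by at least 4 pyrimidines. They begin at the start itself where such a match lies there, and otherwise at the first match within 5 bases of it. The lines were picked to show the gene that differed between lines, members near it in rank, members that vary little or much, and members without a marked run.
Rpl17: ttcgcgcttcCTCTTCCTgttagcggccag
Rpl28: cccctagtgtCTTTCTTTCCgtctccggcc
Rpl12: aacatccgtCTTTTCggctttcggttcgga
Rpl38: ttctttttccgttgttcggtgctcgctcct
Rpl31: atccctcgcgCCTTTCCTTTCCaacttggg
Rpl39: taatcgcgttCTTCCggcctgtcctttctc
Rplp0: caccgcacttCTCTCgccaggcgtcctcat
Rps10: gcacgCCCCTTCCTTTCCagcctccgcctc
Rps14: ccgtctctctCTTTCCggtggaggagtctg
Rps6: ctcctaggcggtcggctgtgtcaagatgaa
Rpl30l1: aggcaagaggatggtggctgcaaagaggac
Rpl22l2: caagaatatacagtcaggatggcaccacag
In Rpl17, Rpl28, Rpl31, Rpl39, Rplp0 and Rps14 the marked run begins at the annotated start. In Rpl17, Rplp0 and Rps14 the unbroken pyrimidines, with a C among them, reach further upstream. In Rpl12 and Rps10 the marked run begins upstream of the start, and Rpl38, Rps6 and both copies have no match within 5 bases. In Rpl38 the 10 bases before the start are all pyrimidines, but the C that opens a match lies further than 5 bases upstream.

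Of the 76 members with a sequence, 24 (31.6%) began with a C and at least 4 more pyrimidines at the annotated start, against 2.63% of all 33469 start sequences. Allowing the run to begin within 5 bases of the start gave 43 members (56.6%) against 17.0%. By class, 17 of 38 main large-subunit symbols and 7 of 23 main small-subunit symbols had the run at the start, and 0 of 13 copies did. Within 5 bases, the counts were 24 of 38, 16 of 23 and 3 of 13, so the order of the subunits depends on the window. An annotated start that is off by a few bases changes such a match.

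Other letters were searched on both strands in the 250 bases before and 50 bases after the start. CCGGAA, the core of ETS factor sites, was in 46.1% of the members and in 5004 of all 33469 sequences. In 8 of the 35 members that hold it, it overlapped the pyrimidine run. GGGCGG, the GC box, was in 51.3% against 33.1%, and AAGATGGC, the core of YY1 sites, in 10.5% against 3.17%. TATAAA was in 13.2% against 14.2%. These matches describe letters and do not show that a factor binds.

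Between bHR and bLR, the lines furthest apart in behaviour, Rpl17 alone among the ribosomal protein genes passed the test. Limma with Benjamini-Hochberg adjustment over all 20909 genes called 1 of the 102 members, lower in bHR, and 0 members higher, where 0.445% of all genes were called (0.253% lower and 0.191% higher). At an unadjusted p under 0.05 stood 7 members (6.86%), against 9.36% of all genes. The 6 bHR and 6 bLR rats did not overlap in 3 members (2.94%), Rpl17, Rpl38 and Rpl30l1, against 0.909% of all genes. The family as a whole was near no difference: 76 of 102 members (74.5%) had the higher mean in bHR, against 49.5% of all genes, but the median log2 difference was 0.05, against -0.00 over all genes. All but 7 members lay within 0.5 of no difference on the log2 scale.

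Rpl17 encodes a large-subunit protein at the exit of the peptide tunnel. Its level in bHR was 14.2 FPM in HR_10, 18.8 in HR_22, 8.43 in HR_26, 22.2 in HR_2, 13.6 in HR_34 and 14.6 in HR_38. In bLR it was 45.1 in LR_16, 36.7 in LR_20, 41.9 in LR_32, 37.7 in LR_44, 70.6 in LR_48 and 41.8 in LR_8. The highest bHR rat was below the lowest bLR rat. The log2 difference was -1.60 (SE 0.26, adjusted p = 0.00296), with 460 to 3250 reads per library. It stayed past the threshold in each of 30 alternative settings (adjusted p from 4.54e-04 to 0.0245), and was -1.60 without the 4 libraries high in Ttr.

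The bIR rats did not lie together between the lines in Rpl17. IR_149, IR_158 and IR_213 had 32.5, 41.2 and 42.7 FPM, and IR_248, IR_261 and IR_293 had 20.8, 16.4 and 14.5. The first 3 values are within or just below the bLR range and the last 3 are within the bHR range. Set against the mean of the other large-subunit genes of the same rat, the gap is wider. On that scale Rpl17 stood from -2.04 to -1.40 in bHR and from -0.12 to 0.21 in bLR (log2), and the bIR rats had -0.33, -0.10 and -0.08 (IR_149, IR_158, IR_213) and -1.45, -1.56 and -1.52 (IR_248, IR_261, IR_293).

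Rpl17l1 is a copy of Rpl17 by its symbol. It stood at 6.04 to 10.6 FPM in bHR (median 7.86) and at 4.37 to 8.22 in bLR (median 5.04), and the lines overlapped. The log2 difference was 0.59 (SE 0.22, adjusted p = 0.349) and did not pass. Rpl17l1 was 4.61, 3.77 and 5.42 FPM in IR_149, IR_158 and IR_213, and 10.996, 8.06 and 8.62 in IR_248, IR_261 and IR_293. The ratio of Rpl17 to Rpl17l1 was 1.40 to 2.09 in bHR and 6.72 to 9.47 in bLR. In bIR it was 7.06, 10.9 and 7.87 in IR_149, IR_158 and IR_213, and 1.89, 2.03 and 1.68 in IR_248, IR_261 and IR_293. No rat had a ratio between 2.09 and 6.72. The summed level of both genes was 23.4 ± 6.26 FPM in bHR rats (14.5 to 32.8) and 51.1 ± 13.9 in bLR rats (41.1 to 78.8; SD, n = 6), with no overlap. How reads shared by the copies were assigned is not given in the sources used here, so the levels of both are uncertain.

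**Figure D1:**
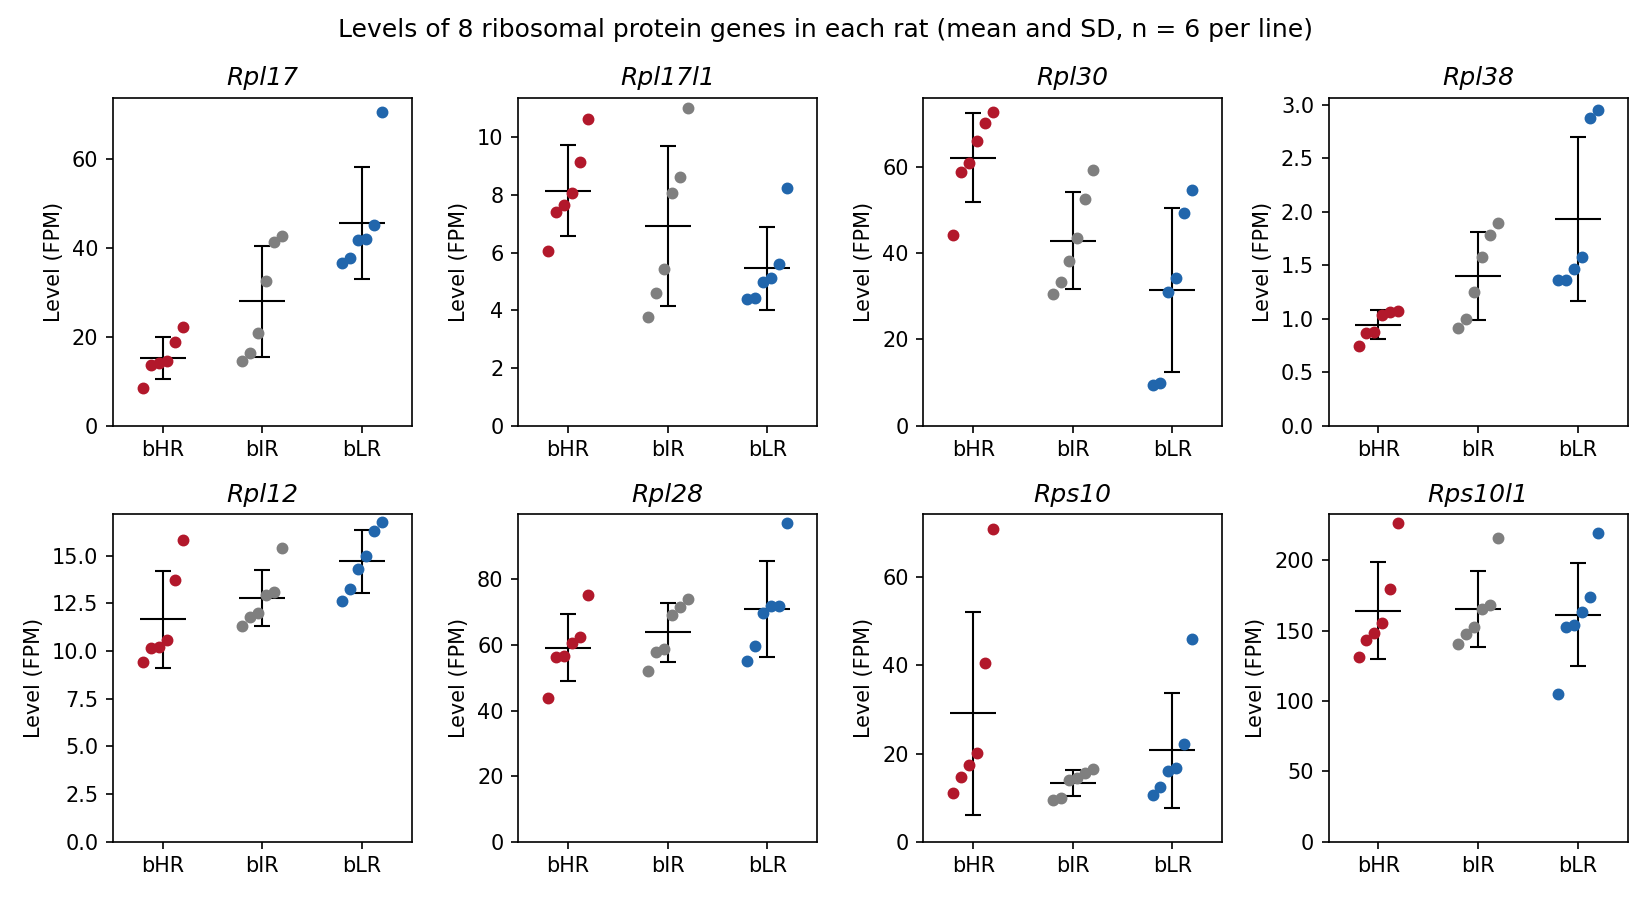
Levels in FPM of 8 ribosomal protein genes, 1 point per rat, by line on the x axis, with the mean and SD over 6 rats. Rpl17 separates bHR (8.43 to 22.2) from bLR (36.7 to 70.6), and Rps10 has 3 rats far above the others of their line.

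**Figure D2:**
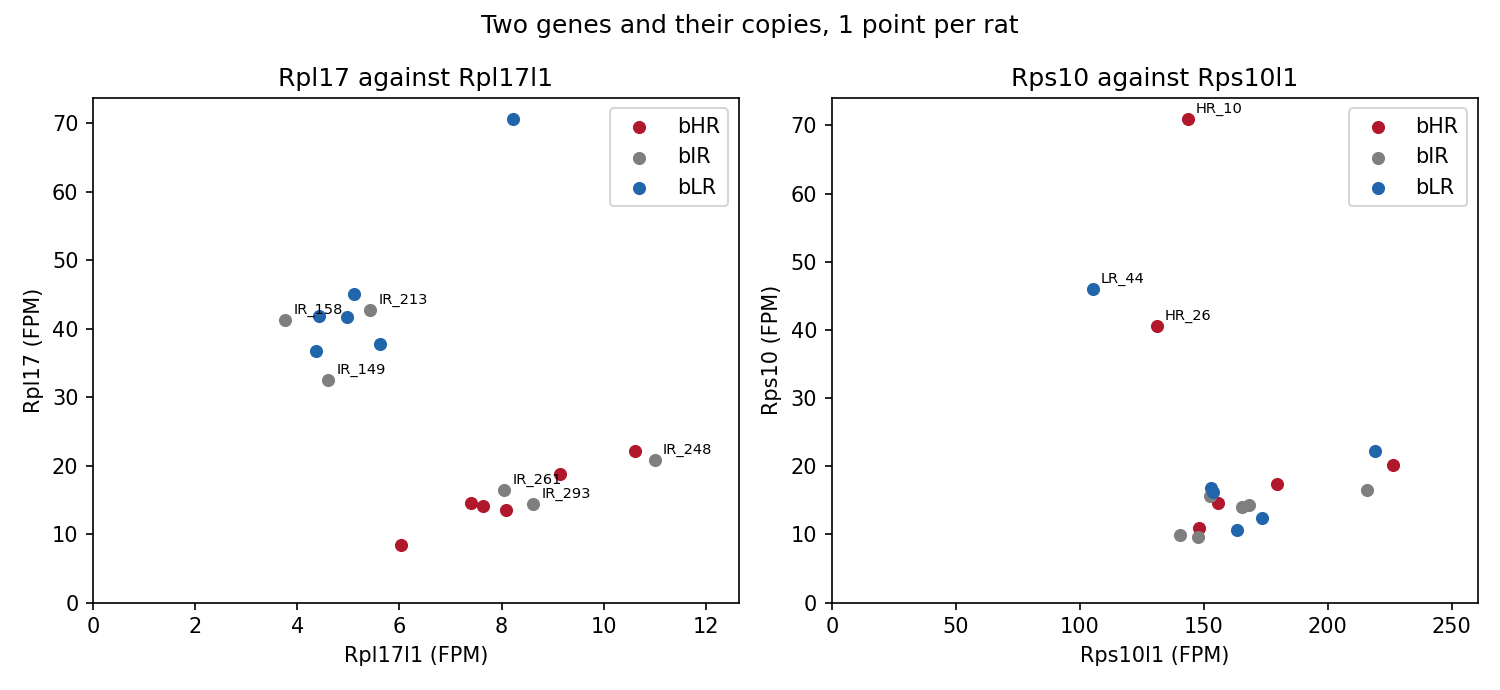
Level of Rpl17 against Rpl17l1 and of Rps10 against Rps10l1 in FPM, 1 point per rat, coloured by line. In the left panel 3 bIR rats lie with the bLR rats and 3 with the bHR rats.

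The members next in rank did not pass. Rpl38, a large-subunit protein known for its part in the translation of Hox messages, was at 0.747 to 1.07 FPM in bHR (median 0.954) and at 1.36 to 2.95 in bLR (median 1.52). The lines did not overlap, and LR_16 and LR_48 were the highest. The log2 difference was -0.96 (SE 0.24, adjusted p = 0.0925), on 27 to 140 reads per library.

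Rpl30, a large-subunit protein, had a log2 difference of 1.28 that did not pass (bHR minus bLR, SE 0.34, adjusted p = 0.126). It was at 72.9, 70.2, 44.4, 58.8, 61.1 and 66.1 FPM in HR_10, HR_22, HR_26, HR_2, HR_34 and HR_38. In bLR it was at 34.2, 9.40, 31.1, 49.3, 54.7 and 9.88 in LR_16, LR_20, LR_32, LR_44, LR_48 and LR_8. LR_20 and LR_8 were far below every other rat of the study, LR_16 and LR_32 were also below the lowest bHR rat, and LR_44 and LR_48 were within the bHR range. Its copy Rpl30l1 was at 0.909 to 1.48 FPM in bHR rats and at 0.410 to 0.815 in bLR rats. With 19 to 66 reads, its difference was 0.77 on the log2 scale and did not pass (SE 0.24, adjusted p = 0.218).

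Rps4y2, a copy of Rps4x by its symbol, had 1.26 to 1.95 FPM in bHR rats and 0.431 to 1.28 in bLR rats (log2 difference 0.94, adjusted p = 0.183), and only LR_20 reached the bHR range. Rps4x had a difference of 0.01 (adjusted p = 0.992). Rpl12, which helps to form the base of the stalk, was at 9.44 to 15.8 FPM in bHR rats and 12.6 to 16.8 in bLR rats (log2 difference -0.35, adjusted p = 0.284). Rpl28 was at 44.0 to 75.3 and 55.1 to 97.2 FPM (-0.25, adjusted p = 0.566; -0.16 without LR_48). The lines overlapped in each of these genes. With the median of the main ribosomal protein symbols of each rat as a covariate, a setting chosen after seeing the data, Rpl12 (-0.42, adjusted p = 0.0388) and Rpl28 (-0.35, adjusted p = 0.0140) passed beside Rpl17.

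**Figure D3:**
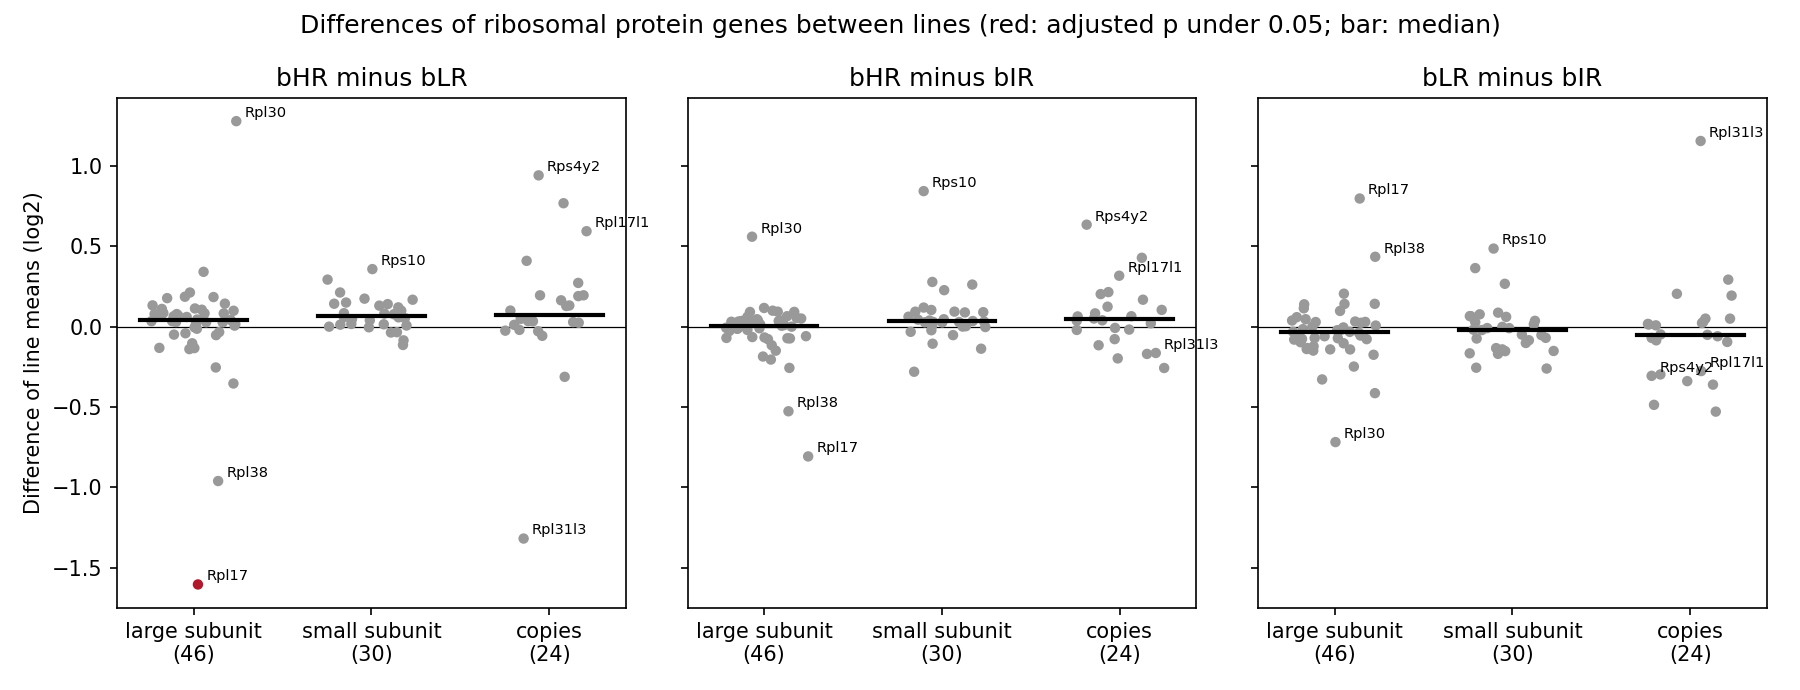
Differences of line means on the log2 scale for 100 ribosomal protein genes, by class on the x axis and by comparison in the panels, with a bar at the median of the class. Rpl17 is the 1 point past the threshold (red, bHR minus bLR), and the medians lie between -0.05 and 0.07.

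Against the bIR rats no member passed. Between bHR and bIR 0 of 102 were called (0.00957% of all genes), 4 (3.92%) had an unadjusted p under 0.05 against 5.81% of all genes, and 0 showed no overlap against 0.268%. Between bLR and bIR 0 were called (0% of all genes), 2 (1.96%) had an unadjusted p under 0.05 against 7.29%, and 0 showed no overlap against 0.507%. The 3 comparisons share rats: each line enters in more than 1 of them. Rpl17 had a log2 difference of -0.81 for bHR minus bIR (adjusted p = 0.792) and of 0.80 for bLR minus bIR (adjusted p = 0.555), each with an SE of 0.26.

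The other members of smallest p did not pass either. For bHR minus bIR these were Rps10 (0.84, adjusted p = 0.842), Rps4y2 (0.63, adjusted p = 0.842), Rpl30l1 (0.43, adjusted p = 0.857), Rps19bp1, a nucleolar partner of Rps19 (0.19, adjusted p = 0.857), Rpl38 (-0.53, adjusted p = 0.851), Rplp2 (-0.26, adjusted p = 0.886) and Rpl12 (-0.15, adjusted p = 0.894). For bLR minus bIR they were Rpl38 (0.43, adjusted p = 0.734), Rpl12 (0.20, adjusted p = 0.746), Rpl29 (0.14, adjusted p = 0.733), Rpl30 (-0.72, adjusted p = 0.683), Rps27l (-0.36, adjusted p = 0.728), Rpl8 (-0.33, adjusted p = 0.775) and Rps12l2 (-0.30, adjusted p = 0.788). Rpl8 was at 9.44 and 8.75 FPM in IR_149 and IR_248 and between 3.35 and 5.64 in the other 16 rats. Leaving out 1 rat moved some of these values by over 1.5 times. For bHR minus bIR, Rps10 was 0.52 without HR_10, and Rpl12 was -0.24 without HR_2 and -0.09 without HR_26 or IR_248. For bLR minus bIR, Rpl30 was -0.43 without LR_20 and -0.45 without LR_8, Rpl8 was -0.16 without IR_149 and -0.18 without IR_248, and Rps12l2 was -0.18 without IR_248.

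Large and small subunits were close to each other in every comparison. For bHR minus bLR, 32 of 46 large-subunit genes (median 0.04) and 24 of 30 small-subunit genes (median 0.06) had the higher mean in bHR. All 30 small-subunit genes stayed within 0.5 on the log2 scale, and 43 of 46 large-subunit genes did, the exceptions being Rpl17, Rpl30 and Rpl38. For bHR minus bIR the medians were 0.00 and 0.03, and for bLR minus bIR -0.03 and -0.02. Over the alternatives, with copies included, the bHR minus bLR median ran from -0.03 to 0.14 in the large and from -0.03 to 0.18 in the small subunit, and without HR_2 alone these medians were -0.02 and -0.01. The bHR minus bIR medians changed sign without HR_2 or IR_149 (in the large subunit also without HR_10, HR_22 or IR_293), and the bLR minus bIR medians without IR_248 or LR_20 (in the small subunit also without IR_261 or LR_44), so no direction of the subunits is given.

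Within a rat, the mean log2 level over the large-subunit genes minus that over the small-subunit genes was 0.11 to 0.28 in bHR (mean 0.21 ± 0.07, SD, n = 6), 0.23 to 0.32 in bIR (0.30 ± 0.03) and 0.23 to 0.37 in bLR (0.28 ± 0.05). The ranges overlapped. The size depends on the genes and the summary taken: in bHR it was 8.65e-05 over genes with a mean log2 level of at least 0 and 0.650 as a difference of medians. Without Rpl17 the means were 0.24, 0.32 and 0.28. Summed levels ran from 4193 to 7327 FPM for the large and from 2527 to 4618 for the small subunit, and their ratio was 1.61 ± 0.07 in bHR, 1.65 ± 0.07 in bIR and 1.64 ± 0.05 in bLR (SD, n = 6). Over all rats the ratio stayed between 1.53 and 1.74.

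**Figure D4:**
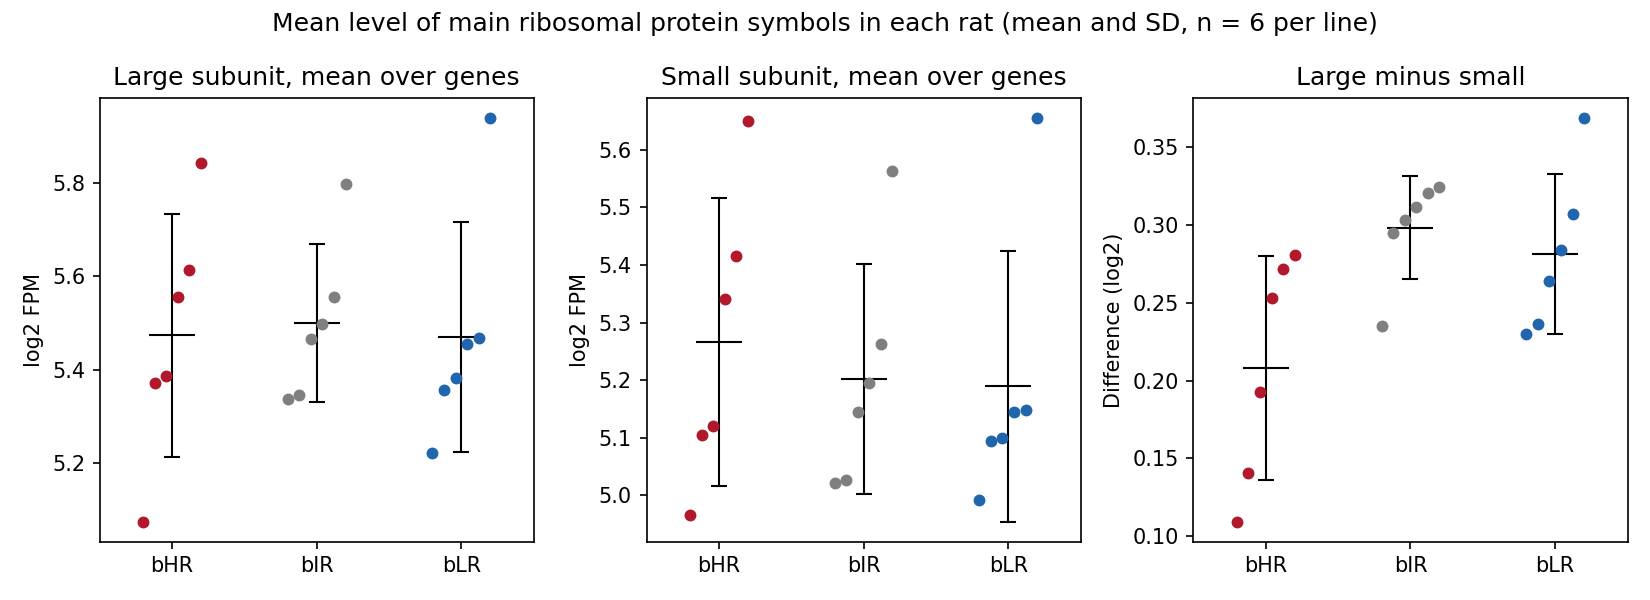
Mean log2 FPM of 46 large-subunit and 30 small-subunit genes in each rat, and their difference, by line, with the mean and SD over 6 rats. Each line has 1 rat well above the others in both subunits (HR_2, IR_248 and LR_48), and the differences between subunits overlap between lines.

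From rat to rat the members varied together. In the 55 main symbols with a mean log2 level of at least 4, the first component of the deviations from the line means held 79.6% of the variance. It held 39.6% in the 8938 other genes of such levels and 58.5% in 72 mitochondrial ribosomal protein genes. The median correlation between pairs of the 55 genes was 0.86 over 18 rats that share library and scaling. Their median SD within lines was 0.29 on the log2 scale, against 0.15 in the other genes and 0.17 in the mitochondrial ones. The line means held a median of 2.63% of a gene's variance, against 10.4% and 7.21%. These shares are not corrected for fitting 3 means, so they exceed 0 even without a difference between lines. Because the 55 genes vary together, their median is not backed by 55 separate values.

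LR_48, HR_2 and IR_248 stood above their line means by 0.50, 0.40 and 0.34 (log2, mean of the 55 genes), and HR_26, IR_149 and LR_20 stood at -0.36, -0.29 and -0.26. For Rps6, the small-subunit protein phosphorylated by the S6 kinases, that meant 419, 404 and 365 FPM in the high rats and 226, 199 and 250 in the low ones. The high rats had 47.3, 31.4 and 38.6 M reads and the low ones 54.6, 44.2 and 57.9. HR_26 and LR_20 were also the deepest of their lines. HR_38 and LR_44, the shallowest of their lines at 31.1 and 34.8 M reads, deviated by -0.09 and -0.12. The deepest library of all, IR_158 at 66.6 M, deviated by -0.01. The part of depth in this pattern was not tested. The summed level of the 3 oligodendrocyte markers was 24514, 24295 and 21551 FPM in the high rats, the highest of their lines, and 14014, 15937 and 16983 in the low ones. Neuronal markers were lower in the high than in the low rat of each line, though nearly level in bLR for the 6 general ones. These 6 summed to 5826, 4527 and 5256 FPM in the high rats and 5921, 5653 and 5834 in the low ones. The 3 CA pyramidal cell markers summed to 191, 122 and 178 FPM in the high rats and 240, 268 and 231 in the low ones, and the 3 dentate granule cell markers to 101, 65.8 and 90.1 and to 153, 131 and 131. Other rats did not keep this order: LR_32, at a deviation of -0.08, had the highest CA pyramidal sum (315) and the lowest dentate sum (79.7) of its line. The mean log2 level of mitochondrial ribosomal protein genes was 5.40, 5.37 and 5.30 in the high rats and 5.02, 4.95 and 5.06 in the low ones. In bLR it was lower in LR_44 (4.99) than in LR_20. The part of cell makeup in this pattern was not tested. Ribosome biogenesis genes kept a mean log2 level between 4.51 and 4.65 in all 18 rats.

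Deviations from the line means of each of the 76 main symbols were correlated over the rats with the mean deviation of the 55 genes. The gene itself was left out of that mean. The correlation was above 0.8 for 51 symbols and under 0.5 for 16. Among the 55 genes themselves, 47 were above 0.8. Rpl4, named after its values were seen, was closest to the family mean (0.98). Rps2 (-0.18), Rpl36 (0.00), Rps21 (0.08) and Rpl8 (0.10) were furthest from it, and were also named after their values were seen. Rpl36, Rps21 and Rpl8 are outside the 55 genes, with mean log2 levels of 3.5, 2.7 and 2.2. The part of low level in weak correlations was not tested. Rps2, near the messenger entry of the small subunit, was at 128 FPM in HR_26, nearly as high in LR_20, and at 43.9 to 75.5 in the other 16 rats. HR_26 and LR_20 were the lowest rats of their lines for the family mean. Rpl36 and Rps21 were high in those rats too, at 13.8 and 14.1 FPM for Rpl36 and at 9.11 and 9.60 for Rps21. Other rats came close: Rpl36 was at 13.8 FPM in HR_10 and 13.4 in LR_32, and Rps21 at 8.63 in LR_32. By pyrimidine run near the start, the median SD was 0.28 in 40 main symbols with it and 0.29 in 21 without. The median correlation with the mean deviation of the 55 genes was 0.86 with the run and 0.93 without, a difference that was not tested.

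**Figure D5:**
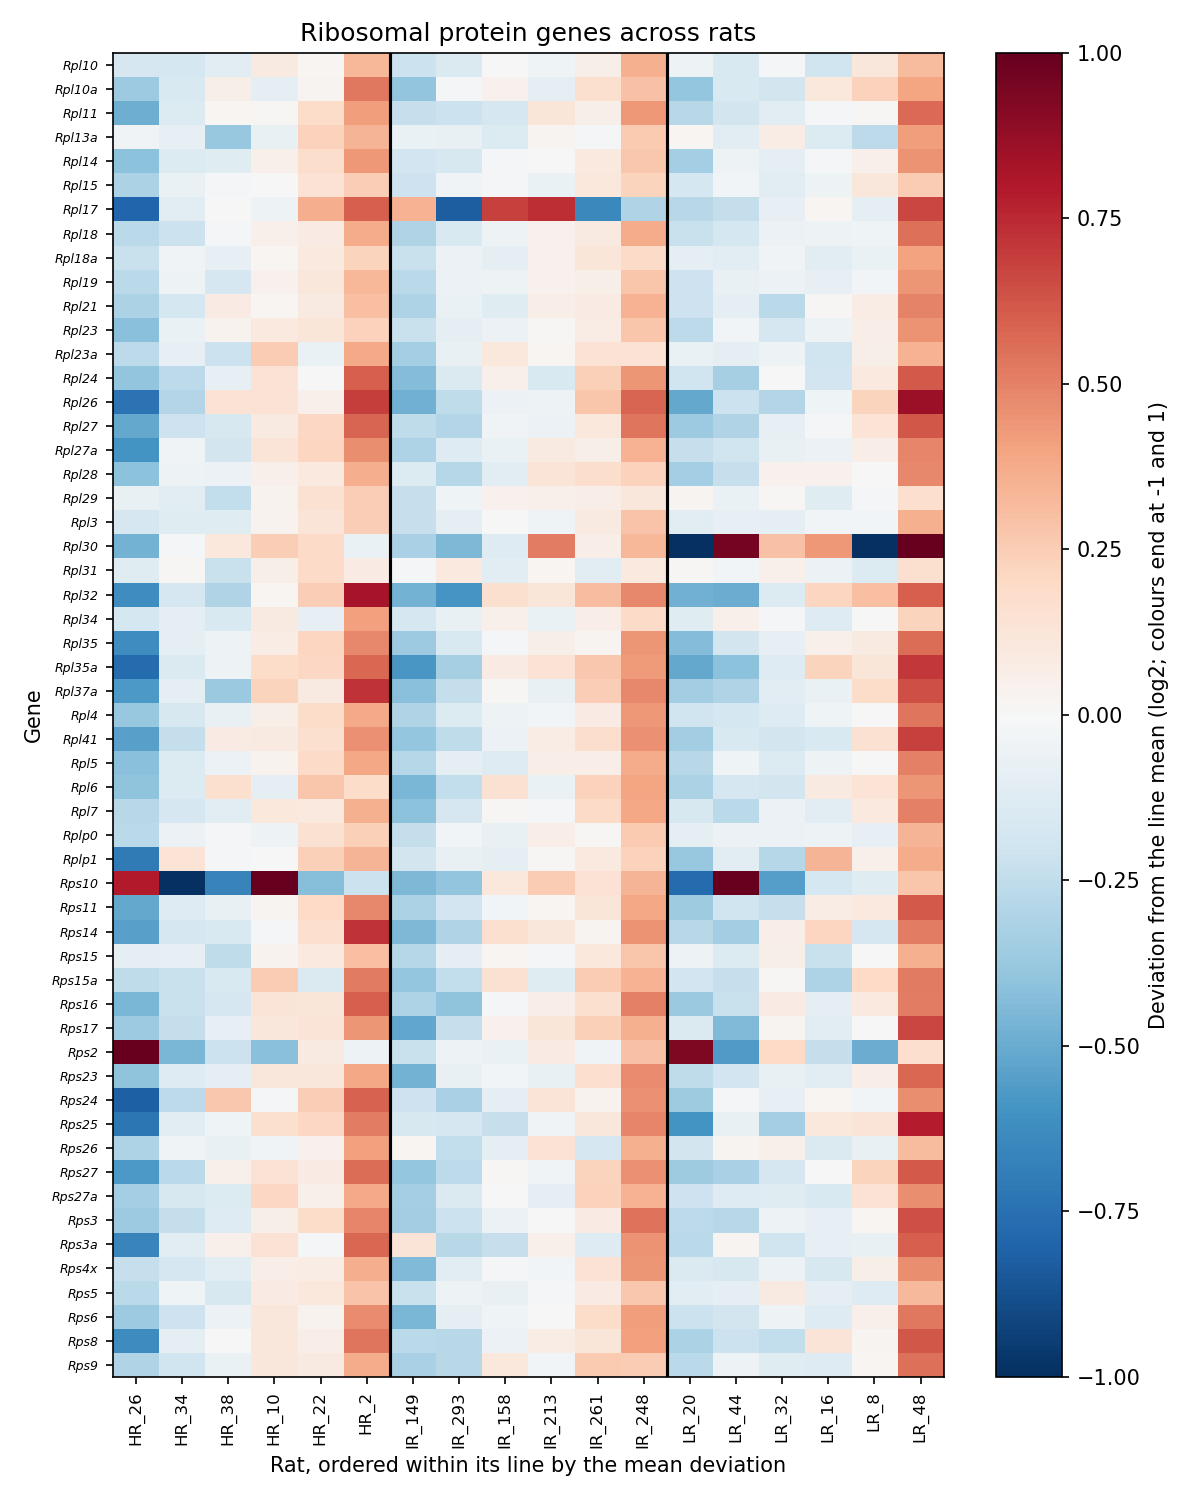
Deviation of 55 ribosomal protein genes (rows) from their line mean in each of 18 rats (columns), on a log2 scale from blue (low) to red (high). Columns are nearly uniform in colour, and Rpl17, Rpl30, Rps2 and Rps10 depart from them.

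Some members departed from the family in single rats. Rps10, a small-subunit protein whose gene is mutated in some Diamond-Blackfan anaemia, was at 71.0 FPM in HR_10, 40.5 in HR_26 and 46.03 in LR_44 and at 9.55 to 22.2 in the other 15 rats. Its copy Rps10l1 was at 143, 131 and 105 FPM in those rats and at 141 to 226 in the others. The ratio of Rps10 to Rps10l1 was 0.495, 0.310 and 0.437 in HR_10, HR_26 and LR_44. It lay between 0.0647 and 0.110 elsewhere. Rps10 did not pass between bHR and bLR (log2 difference 0.36, SE 0.37, adjusted p = 0.837), and the level of either gene is uncertain because reads may be shared.

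The steadiest members within lines were Rpl31 (SD 0.12), Rpl7l1 (0.13), Rpl29 (0.14), Rpl34 (0.17) and Rpl15 (0.17), with Rpl31 at 51.2 to 68.1 FPM over all rats. The most variable of those with a mean log2 level of at least 0 were Rpl10l (SD 0.82), Rps10 (0.75), Rpl30 (0.70), Rpl39 (0.57) and Rpl17 (0.52). Rpl10l, an intron-poor copy of Rpl10 best known from testis, was at 0.261 FPM in HR_26 and at 0.992 to 2.89 in the other rats. By mean log2 level, the highest members were Rps4x (mean 536 FPM), Rpl41 (517), Rpl3 (473), Rps27a (446) and Rplp0 (428). The lowest by mean log2 level were Rpl31l3 (mean 0.0942 FPM), Rpl31l1 (0.123), Rpl3l (0.573), Rps19 (0.663) and Rpl39l (0.724). By mean FPM, Rps12l3 (0.705) was below Rpl39l. These orders are not corrected for gene length. Rps19 is a main symbol with 15 to 45 reads per library. The part of reads shared with copies in such low values was not tested.

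By role, the stalk proteins, which recruit the GTPases of translation, showed no call: Rplp0 (0.04), Rplp1 (0.08) and Rplp2 (-0.13, bHR minus bLR, adjusted p of at least 0.892). Of 9 tunnel proteins Rpl17 was called and the others were not, among them Rpl39 (0.34), Rpl26 (0.19), Rpl23a (-0.14) and Rpl31 (0.01). The 5S particle proteins Rpl11 (0.11) and Rpl5 (0.02), which restrain Mdm2 when ribosome assembly fails, were not called, nor were Mdm2 (-0.01) and Cdkn1a (-0.04). Of 18 genes of Diamond-Blackfan anaemia, an inherited failure of red cell production, 0 passed, and Rps24 had the smallest unadjusted p (0.29, adjusted p = 0.675). Of these 18 genes 15 had the higher mean in bHR, as did 74.5% of all 102 members. The paralogues Rpl22l1 (0.19), Rpl36al (0.10), Rpl39l (0.27), Rpl3l (-0.02) and Rpl10l (-0.31) did not pass either. Among genes outside the symbol pattern that encode ribosomal proteins, Fau (0.13), Rack1 under its older symbol Gnb2l1 (0.03) and Rpsa (0.01) were also not called.

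Genes that build, control or use the ribosome were called once between bHR and bLR. Of 32 initiation and elongation factors, 1 was lower in bHR, where 0.253% of all genes were: Eif2b1, a subunit of the exchange factor of eIF2, at 18.8 ± 1.46 FPM for bHR rats, 21.0 ± 1.40 for bIR and 23.9 ± 2.11 for bLR (SD, n = 6; log2 difference -0.35, SE 0.08, adjusted p = 0.0382). The next in rank was Eef1a2, the elongation factor of neurons and muscle (-0.18, adjusted p = 0.510). None was called among 67 ribosome biogenesis genes (median -0.02), 76 mitochondrial ribosomal protein genes (0.00), 18 genes of mTORC1 and TOP control (-0.01), 17 translation factors and other TOP messages (-0.03), 11 genes of ribosome rescue and hibernation (-0.07), 10 S6 kinase genes (-0.02) and 8 chaperones of ribosomal proteins (-0.03). In these 7 lists the limma test gave 4, 2, 1, 0, 0, 0 and 1 genes at an unadjusted p under 0.05, against 9.36% of all genes. The smallest p of each list belonged to Rrp9 (-0.22, adjusted p = 0.342), a small nucleolar particle protein, Mrpl43 (0.32, adjusted p = 0.132), Eif4ebp2 (0.16, adjusted p = 0.491), a translation repressor under mTORC1, Eif4b (-0.13, adjusted p = 0.536), Ltn1 (0.14, adjusted p = 0.679), a ubiquitin ligase of stalled ribosomes, Rps6kc1 (-0.08, adjusted p = 0.804) and Heatr3 (-0.21, adjusted p = 0.305), which helps to bring Rpl5 into the nucleus. The second in rank were Gnl2 (-0.19), Mrpl19 (-0.18), Eif4ebp1 (0.19), Eif3f (-0.14), Habp4 (-0.07), Rps6kb2 (-0.12) and Bccip (0.16). Against bIR, 0 genes of these lists were called in either line.

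Around Rpl17, Rpl30, Rpl38, Rpl12 and Rpl28, 0 of the 10 measured neighbours of each gene in the order of GRCr8 were called (smallest adjusted p = 0.398, limma), and 0, 2, 1, 0 and 2 had an unadjusted p under 0.05, near the 9.36% of all genes. Deviations from line means over 18 rats were correlated with those of Rpl17 for 15636 genes with a mean log2 level of at least 0. The largest in size were Cct3, a subunit of the chaperonin CCT (r = 0.79), Ppp1r15a, a phosphatase subunit of the stress response (-0.79), RGD1559667 (0.78), Fam135a (-0.77) and LOC100365921 (0.76). These genes are the extreme of many correlations over few rats, and a link to Rpl17 was not tested. None of them was called between the lines.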

How the data were processed

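Hippocampal RNA of 18 rats was sequenced as stranded polyA libraries, per the labels' protocols. The authors deposited log2 FPM values (limma voom, R 3.2.2) with an offset of 0.5 reads, from reads aligned with Subread to Rnor_6.0 and counted with featureCounts on Ensembl genes, per the submitters' processing notes. Versions of tools other than R were not given in the sources used here. Taking the lowest value of a column as 0 reads gave whole reads within 2.67e-08 for all values and 31.1 to 66.6 M reads per library. Limma 3.58.1 in R 4.3.3 was fitted to the deposited log2 values: 3 line means over 18 rats (15 residual degrees of freedom), trended empirical Bayes, two-sided, Benjamini-Hochberg adjustment over 20909 genes, adjusted p under 0.05. Folds are log2 differences.

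Members and lists were chosen with earlier results of these data known. Named genes were the marker Rpl17, called members, the 4 of smallest p each way per comparison, the 5 of highest and lowest mean and of largest and smallest SD (largest at a mean log2 of at least 0), and members of the paralogue and non-structural lists; from other lists, called genes or else the 2 of smallest p; and the 5 genes most like Rpl17. Genes added for their role (stalk, tunnel, 5S particle, fusion genes, Rps4x, Rps6) or marked in the text were named after values were seen. Groups came from sample titles. Alternatives covered filters, scalings, variance models, covariates and leaving out each rat. Replicates are separate animals with no labelled batch.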

Additional observations from a re-analysis of the deposited data

Results flagged for a closer look

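In 54 groups of 6 rats screened for a rat far from the others of its line, 3 were found, where chance gives about 1 in 20. Rpl17 in LR_48 was at 70.6 FPM, while the other bLR rats were at 36.7 to 45.1; without LR_48 the Rpl17 log2 difference bHR minus bLR was -1.47 (adjusted p = 0.00837). The mean log2 level of the main symbols in LR_48 was 5.83, and the other bLR rats had 5.13 to 5.33. The large-minus-small difference of IR_248 was 0.235 on the log2 scale, below the other bIR rats at 0.294 to 0.324.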

How the results depend on the processing

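Of 1045 comparisons of 36 results with alternative settings, 1035 kept direction and side of the threshold, or stayed within the spread of the replicates. This count is a loose measure. All 32 alternatives of each subunit median stayed within that spread, although leaving out single rats changed the sign of each median. Of the named genes only Rpl17 was called, for bHR minus bLR, so for the others a kept side means not called. The number of members called between bHR and bLR was 3 with the median of the main symbols as a covariate (Rpl12 and Rpl28 added; this setting was chosen after seeing the data) and 1 without any of the 18 rats in turn. The large-minus-small difference moved with the set of genes. Restricted to genes with a mean log2 level of at least 0 it was 8.65e-05 in bHR, 0.102 in bIR and 0.0803 in bLR; with all symbols it was 0.246 in bIR; as a difference of medians it was 0.650 in bHR, 0.703 in bIR and 0.775 in bLR. Leaving out rats gave 0.193 to 0.228 in bHR, 0.293 to 0.311 in bIR and 0.264 to 0.292 in bLR. No scaling moved the median of all genes by more than 0.03. No paired analysis was possible because the lines share no replicate number. Depth limits the low members: Rpl38 rests on 27 to 140 reads per library and Rps19 on 15 to 45.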
